A study of Mus musculus with 6 samples.

Results

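The muscle miRNAs mir-1, mir-133 and mir-206 were examined in small RNA sequencing libraries of extracellular vesicles from C2C12 cells, a mouse myoblast line, and of 2 kinds of mouse bone cells. The 6 precursor entries mir-206, mir-133b, mir-133a-1, mir-133a-2, mir-1a-1 and mir-1a-2 were taken by name from the 1006 entries of the authors' table, and all 6 were present. The study asked how fluid flow shear stress (FFSS) on myoblasts alters the vesicles they release (EVs). The 6 libraries were 2 of EVs from unstressed C2C12 cells (Myo-EVs), 2 of EVs from C2C12 cells under FFSS (FFSS-Myo-EVs), 1 of primary osteoblasts (OB) and 1 of bone marrow cells (BM).

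The labels give OB and BM as cells of mice aged 8 to 10 weeks with a background of 81.25% C57BL/6J and 18.75% 129/SvJ, and they list the same strain mix for the C2C12 libraries. That mix was not taken as the strain of the C2C12 line. The methods differ from these labels for OB, which they describe as cultured calvarial cells pooled from several newborn male mice. The C2C12 cells were confluent and kept for 48 hr in medium with EV-depleted serum, with no switch to a differentiation medium described in the methods. The label text on cell growth speaks of vitamin D and dexamethasone and not of FFSS, so the FFSS groups rest on the titles and the stress label. Apart from that text, which is worded alike for all 6 libraries, no drug is named, and no deletion or transgene is. C2C12 is 1 line, and libraries of the C2C12 cells that released the EVs were not analysed here. The labels do not say whether the 2 libraries of an EV group came from separate cultures. The p-values thus cover only spread between these libraries, which may be technical. In the main test that spread was pooled across entries and was not that of each single entry.

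Muscle miRNAs are short RNAs that MyoD and related factors switch on in the skeletal muscle lineage. miR-206 is restricted largely to skeletal muscle and rises as myoblasts leave the cell cycle, whereas miR-1 and miR-133 are shared by skeletal and heart muscle. miR-1 and miR-206 are known to favour differentiation, and miR-133 has been tied both to myoblast proliferation and to differentiation. A miRNA finds its targets mainly through the seed, the short stretch near its 5′ end.

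The sequences of mir-206 and mir-133b are shown because these 2 entries are genomic neighbours whose balance differed between the EV groups, and that of miR-1a-1-5p is shown beside miR-206-5p because the 2 are nearly alike. They are from RefSeq on GRCm38.p6, written 5′ to 3′, with the seed (bases 2 to 8) in capitals, and a mature sequence was matched for 3 of the 6 entries.
miR-206-3p: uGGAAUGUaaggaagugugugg
miR-206-5p: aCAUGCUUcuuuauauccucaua
miR-133b-3p: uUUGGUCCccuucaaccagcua
miR-133b-5p: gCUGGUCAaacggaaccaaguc
miR-1a-1-5p: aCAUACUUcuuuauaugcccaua
None of these 5 seeds was shared with another, which covers only the arms shown. No 3p arm of mir-1a was among the matched sequences, so its seed was not compared with that of miR-206-3p. Nothing here shows that those 3p seeds differ. The longest stretch that miR-206-3p shared with either mir-1a precursor was 10 bases. Where it lies in miR-206-3p was not recorded, so it may include the seed. miR-206-5p and miR-1a-1-5p were identical at 20 of 23 positions, and their seeds differed.

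The 2 precursors lie close together on chromosome 1. In the hairpins below, the 5p and 3p arms are in capitals.
mir-206 hairpin: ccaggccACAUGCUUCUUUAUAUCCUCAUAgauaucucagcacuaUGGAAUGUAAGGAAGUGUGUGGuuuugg
mir-133b hairpin: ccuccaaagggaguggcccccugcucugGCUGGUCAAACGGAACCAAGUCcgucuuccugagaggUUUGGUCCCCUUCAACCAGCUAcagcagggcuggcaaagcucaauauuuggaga
The mir-206 hairpin of 73 bases is at chr1:20679010-20679082 and the mir-133b hairpin of 119 bases at chr1:20682769-20682887, both on the plus strand of GRCm38, with 3686 bases between them. Both overlap an exon of the lincRNA gene Gm28653 in the GENCODE annotation. The 2 precursors share no stretch longer than 5 bases. The position of the other 4 entries is given with their values.

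The depth differed between libraries. The summed count over all 1006 entries ranged from 2414132 to 3029524 in the EVs and was 5181296 in OB and 6092460 in BM. The normalized expression value of the authors is the count times 1 constant per library. A count of 3, used as the floor for a count of 0, corresponded to a value of 2.99 to 3.59 in the EV libraries, 1.66 in OB and 1.19 in BM. The exact 95% upper limit of a count of 0 is higher. It corresponded to a value of 3.67 to 4.42 in the EV libraries, 2.04 in OB and 1.47 in BM. The intervals given here are exact 95% Clopper-Pearson intervals, and they cover counting error only, for ratios to a cell that of the cell library alone. Each read spans a mature miRNA, so entries were compared without scaling to length. In bulk libraries, fewer cells or vesicles of a kind and less RNA in each of them cannot be told apart.

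mir-206 was the one muscle miRNA that was abundant in the EVs. Its normalized expression value was 1968.5 in Myo-EV 1 (1961 counts) and 2365.4 in Myo-EV 2 (1975 counts). Under FFSS it was 2610 in library 1 (2620 counts) and 2604.9 in library 2 (2352 counts). In OB it was 91.7 (78.3 to 107) from 166 counts, and in BM it was 7.9 (4.85 to 12.3) from 20 counts. All 4 EV libraries were far above both kinds of bone cells, and OB was above BM. Among the 1006 entries, mir-206 held ranks 90 and 87 without FFSS, ranks 83 and 82 with it, rank 228 in OB and rank 361 in BM.

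The mean value of mir-206 in Myo-EVs was 23.6-fold that in OB (20.3 to 27.7) and 273-fold that in BM (177 to 447). In FFSS-Myo-EVs it was 28.4-fold that in OB (24.4 to 33.3) and 328-fold that in BM (213 to 537). These ratios have no replicate check on the cell side, since OB and BM had 1 library each, and other scalings moved them to between 19.3 and 27.3 against OB and between 229 and 291 against BM.

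**Figure D1:**
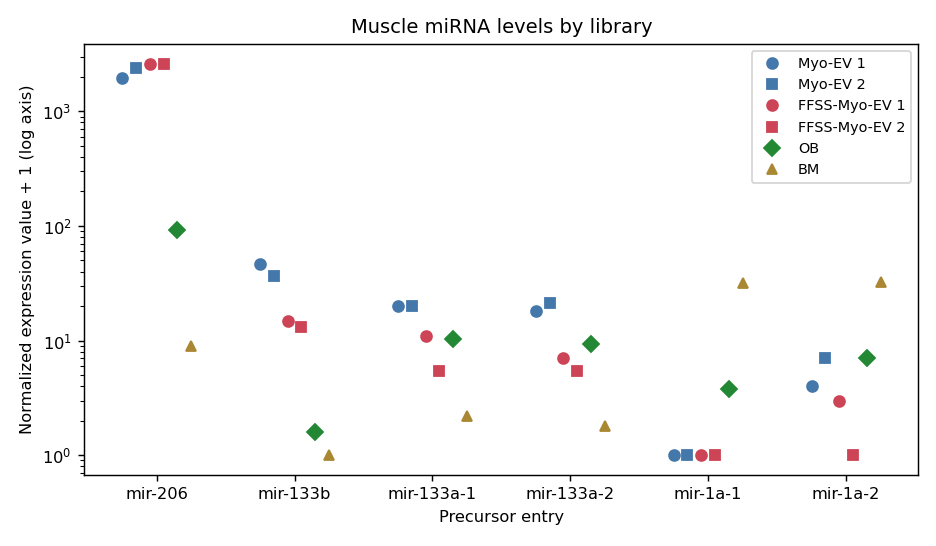
Normalized expression value plus 1 (log axis) of the 6 muscle miRNA precursor entries, with 1 point per library for Myo-EVs, FFSS-Myo-EVs, OB and BM. mir-206 lies between 1968.5 and 2610 in the 4 EV libraries, the 3 mir-133 entries lie lower in both FFSS-Myo-EV libraries than in both Myo-EV libraries, and the 2 mir-1a entries are highest in BM.

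mir-133b, the neighbour of mir-206, was far less abundant. It had a normalized expression value of 45.2 (45 counts) in Myo-EV 1, 35.9 (30 counts) in Myo-EV 2, 13.9 (14 counts) in FFSS-Myo-EV 1 and 12.2 (11 counts) in FFSS-Myo-EV 2. OB held 1 count (0.6) and BM held 0. Every Myo-EV value was above every FFSS-Myo-EV value, and all 4 EV libraries were above both cells. The Myo-EV mean was 73.4-fold the OB value (13.2 to 2900), which rests on the single count in OB. Against BM it was at least 34.0-fold with the floor of 3 counts for the 0 counts there. At the exact upper limit of those 0 counts it was at least 27.7-fold. The FFSS-Myo-EV mean was 23.7-fold the OB value (4.25 to 934). Against BM it was at least 11.0-fold on the same floor and at least 8.92-fold at the exact limit.

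mir-133a-1 and mir-133a-2 are 2 genomic copies with the same mature miR-133a, and their levels were low and alike. mir-133a-1 had normalized expression values of 19.1 and 19.2 without FFSS (19 and 16 counts), 10 and 4.4 with FFSS (10 and 4 counts), 9.4 in OB (17 counts) and 1.2 in BM (3 counts). mir-133a-2 had values of 17.1 and 20.4 without FFSS (17 counts in each), 6 and 4.4 with FFSS (6 and 4 counts), 8.3 in OB (15 counts) and 0.8 in BM (2 counts). Both entries were highest in the unstressed EVs and lowest in BM. The OB value lay between the 2 EV groups for mir-133a-2 and between the 2 FFSS-Myo-EV libraries for mir-133a-1.

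Against OB, the Myo-EV mean was 2.04-fold for mir-133a-1 (1.27 to 3.50) and 2.26-fold for mir-133a-2 (1.37 to 4.04), and the FFSS-Myo-EV mean was 0.766-fold (0.479 to 1.32) and 0.628-fold (0.381 to 1.12). The intervals of the FFSS-Myo-EV ratios include equal levels, and without FFSS-Myo-EV library 2 the ratio of mir-133a-1 was 1.06. Against BM the Myo-EV mean of mir-133a-1 was 16.0-fold (5.49 to 77.8) and that of mir-133a-2 was 23.6-fold (6.52 to 195). The FFSS-Myo-EV mean was 6.04-fold the BM value for mir-133a-1 (2.07 to 29.3), or 3.72-fold without FFSS-Myo-EV 1, and 6.55-fold for mir-133a-2 (1.81 to 54.1).

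The 3 mir-133 entries are not independent measurements. The mir-133a-1 and mir-133a-2 precursors share a stretch of 31 bases, and each shares 21 bases with mir-133b, which is all but 1 base of miR-133b-3p. How the authors assigned reads that match several precursors is not given in the sources used here.

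mir-1a was at or near 0 in the EVs. mir-1a-1 had 0 counts in each of the 4 EV libraries, 5 in OB (normalized expression value 2.8) and 77 in BM (30.6, 24.1 to 38.2). mir-1a-2 had 3 and 5 counts without FFSS (values 3 and 6), 2 and 0 counts with FFSS (2 and 0), 11 in OB (6.1, 3.03 to 10.9) and 79 in BM (31.4, 24.8 to 39.1). BM was above each of the other 5 libraries for both entries. The BM value of mir-1a-1 was at least 9.26-fold higher than in Myo-EVs and at least 9.69-fold higher than in FFSS-Myo-EVs. These bounds take the floor of 3 counts for the 0 counts in each EV library. The BM value of mir-1a-2 was 6.97-fold the Myo-EV mean, a mean that rests on 3 and 5 counts.

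The 2 mir-1a precursors share a stretch of 28 bases, and their counts in BM were nearly equal. Of the muscle miRNAs, mir-206 and mir-133b thus set the EVs apart from both bone cells by level, and mir-1a did not, since its highest level was in BM. Markers of blood cells were high in the same BM library, where 6 listed entries (of 7 on the list) summed to a normalized expression value of 26173, against 10.8 to 53.8 in the EVs and 198 in OB. Their part in the mir-1a values was not tested.

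mir-1a and mir-133a are paired in the genome, but their counts did not go together. mir-1a-1 (chr2:180389048-180389124) and mir-133a-2 (chr2:180398379-180398482) lie 9254 bases apart on the plus strand of GRCm38, with no other annotated gene overlapping either. In the EV libraries mir-133a-2 had 17, 17, 6 and 4 counts while mir-1a-1 had 0. In OB mir-133a-2 had 15 counts to 5 of mir-1a-1, and in BM it had 2 counts to 77, a ratio of 0.0260 (0.00309 to 0.0971).

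mir-1a-2 (chromosome 18, 10785481 to 10785552) and mir-133a-1 (10782909 to 10782976) lie 2504 bases apart on the minus strand, within the antisense gene Mir133a-1hg and opposite the protein-coding gene Mib1. The count of mir-133a-1 was 6.33 times that of mir-1a-2 in Myo-EV 1 (1.86 to 33.4), 3.2 times in Myo-EV 2 (1.12 to 11.2) and 5 times in FFSS-Myo-EV 1 (1.07 to 46.9), and it was 4 against 0 in FFSS-Myo-EV 2. The ratio was 1.55 in OB (0.683 to 3.65) and 0.0380 in BM (0.00767 to 0.115). In both gene pairs mir-133a exceeded mir-1a in the EVs, and mir-1a exceeded mir-133a in BM. In OB only the interval of the pair mir-133a-2 and mir-1a-1 lay above 1 (1.04 to 10.6). Since reads from a shared stretch can match either copy, the counts of 1 entry need not reflect transcription of its own locus. miR-1a-1-5p differs between copies, with 23 bases in the mir-1a-1 precursor and a longest shared stretch of 14 in that of mir-1a-2.

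Other muscle-enriched entries were few in the EVs. mir-1b, whose precursor overlaps mir-1a-2 on the opposite strand, had 4 and 3 counts without FFSS and 1 and 5 with it, but 671 in OB (normalized expression value 370.6, 343 to 400) and 128 in BM (50.8, 42.4 to 60.4). Read in its own direction, mir-1b shares no stretch longer than 13 bases with either mir-1a precursor. Its complement, which spans the whole of mir-1a-2, was not compared. How strand was treated is not given in the sources used here. mir-499, which lies in a myosin heavy chain gene of slow and heart muscle, had 3 and 1 counts without FFSS, 4 and 0 with it, 20 in OB (value 11) and 3 in BM. mir-133c had 1 count in FFSS-Myo-EV 1, mir-208b had 1 count in OB, and both were at 0 elsewhere. None of these 4 reached the level needed for a test.

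The 6 muscle entries together made up 0.0712% and 0.0846% of the counts without FFSS, 0.0875% and 0.0893% with it, 0.00415% in OB and 0.00297% in BM. Within the 6, mir-206 took 95.9% and 96.7% of the counts without FFSS, 98.8% and 99.2% with it, 77.2% in OB (71.0 to 82.6) and 11.0% in BM (6.88 to 16.5). The 3 mir-133 entries took 3.96% and 3.08% without FFSS, 1.13% and 0.801% with it, 15.3% in OB and 2.76% in BM. The 2 mir-1a entries took at most 0.245% in an EV library, 7.44% in OB and 86.2% in BM (80.3 to 90.9). Of these 6 entries, the EV libraries thus held nearly only mir-206, and BM held mainly mir-1a.

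**Figure D2:**
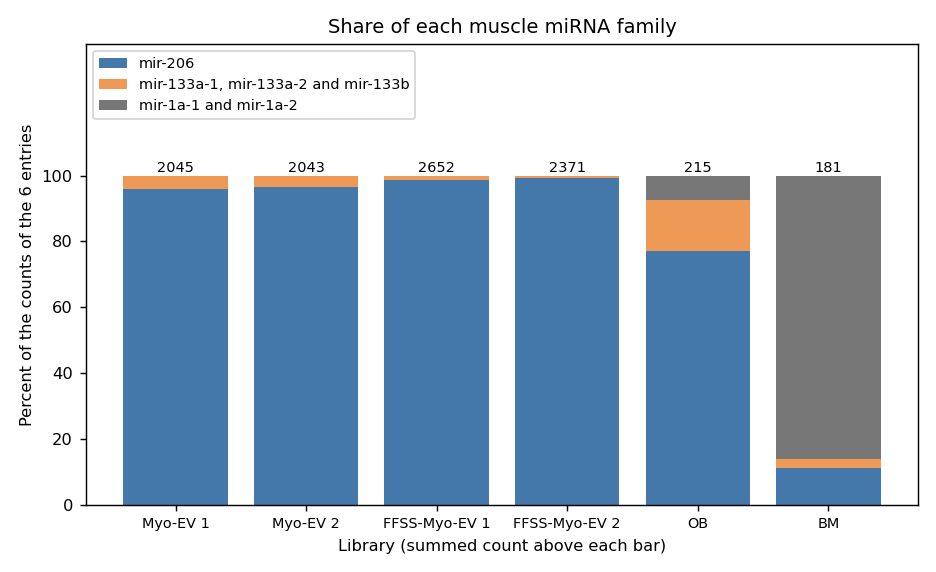
Percent of the summed counts of the 6 entries taken by mir-206, by the 3 mir-133 entries and by the 2 mir-1a entries in each library, with the summed count above each bar. mir-206 makes up at least 95.9% of each EV bar, whereas mir-1a makes up 86.2% of the BM bar.

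To set the muscle entries against the table as a whole, entries at least 2-fold higher or lower in each EV library than in a cell were counted among those with a value of at least 10 in the EV mean or the cell. Of 464 entries compared with OB, 31.7% were higher in all 4 EV libraries, and among the muscle entries these were mir-133b and mir-206. A further 29.1% were lower, and no muscle entry was among them. mir-133a-1 and mir-133a-2 were in neither class, and both mir-1a entries were below the level for that comparison. Of 439 entries compared with BM, 36.4% were higher in all 4 EV libraries, among them mir-206, mir-133b, mir-133a-1 and mir-133a-2. Another 31.4% were lower, among them mir-1a-1 and mir-1a-2. Against BM, the higher muscle entries reached a value of 10 only in the EV mean, and the mir-1a entries only in BM. Against OB, mir-133b reached it only in the EV mean. That cut thus favours the class of these entries. Both directions were common in the table, so the count of muscle entries alone does not set them apart.

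With FFSS, mir-133b and both mir-133a entries fell, to 0.322, 0.376 and 0.277 of their Myo-EV means, and mir-206 did not pass the test. The counts of the 4 EV libraries were compared by edgeR's quasi-likelihood test with TMM factors and Benjamini-Hochberg adjustment over the 354 entries whose mean value in these libraries reached 10. A log2 fold change is that of FFSS-Myo-EVs over Myo-EVs. Of the 6 muscle entries 4 were tested, and mir-1a-1 and mir-1a-2 were too low.

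mir-133b averaged 40.55 ± 6.58 (SD, n = 2) in Myo-EVs and 13.05 ± 1.20 (SD, n = 2) in FFSS-Myo-EVs, with no overlap. The log2 fold change was -1.75 with a standard error of 0.40, and the adjusted p in edgeR was 0.000139. It was below 0.05 under each of 12 other analyses of this comparison that could test it, with log2 fold changes from -1.91 to -1.13 and adjusted p from 3.55e-05 to 0.0297 in edgeR, limma and DESeq2.

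mir-133a-2 averaged 18.75 ± 2.33 (SD, n = 2) in Myo-EVs and 5.2 ± 1.13 (SD, n = 2) in FFSS-Myo-EVs. Its log2 fold change was -1.92 with a standard error of 0.49 and an adjusted p of 0.000736 in edgeR. mir-133a-1 averaged 19.15 ± 0.07 (SD, n = 2) and 7.2 ± 3.96 (SD, n = 2), with a log2 fold change of -1.49, a standard error of 0.46 and an adjusted p of 0.00647 in edgeR. The mir-133a-1 call was lost when Myo-EV 1, Myo-EV 2 or FFSS-Myo-EV 2 was left out, with adjusted p of 0.0567, 0.0629 and 0.261 in edgeR. The log2 fold change was -1.43 without Myo-EV 1 and -1.45 without Myo-EV 2, close to the value with all 4 libraries, whereas it was -0.98 without FFSS-Myo-EV 2 and -2.25 without FFSS-Myo-EV 1. DESeq2 gave no adjusted p for the 2 mir-133a entries, whose unadjusted p was 0.0612 for mir-133a-1 and 0.0220 for mir-133a-2. Both mir-133a entries had FFSS-Myo-EV means under 10 and so were tested only through their Myo-EV level. Without that filter the adjusted p in edgeR was 0.0169 for mir-133a-1 and 0.00260 for mir-133a-2.

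mir-206 averaged 2167 ± 281 (SD, n = 2) in Myo-EVs and 2607 ± 3.61 (SD, n = 2) in FFSS-Myo-EVs, or 1.20-fold. The FFSS-Myo-EV values did not overlap the Myo-EV values, but the nearest values of the groups, 2365.4 and 2604.9, were closer together than the 2 Myo-EV values. The log2 fold change was 0.15 with a standard error of 0.13 and an adjusted p of 0.420 in edgeR. Without Myo-EV 2, the log2 fold change was 0.32 and the adjusted p 0.00722 in edgeR. That fit has 1 Myo-EV library, which is assumed to vary like the 2 FFSS-Myo-EV libraries, whose mir-206 values were nearly equal. mir-206 did not pass under the other 12 analyses.

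mir-1a-1 was at 0 in both groups and allowed no comparison. mir-1a-2 averaged 4.5 ± 2.12 (SD, n = 2) in Myo-EVs and 1 ± 1.41 (SD, n = 2) in FFSS-Myo-EVs. In the fit without a filter its log2 fold change was -2.10 with a standard error of 1.17 and an adjusted p of 0.343 in edgeR, so a difference was not detectable at this depth.

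**Figure D3:**
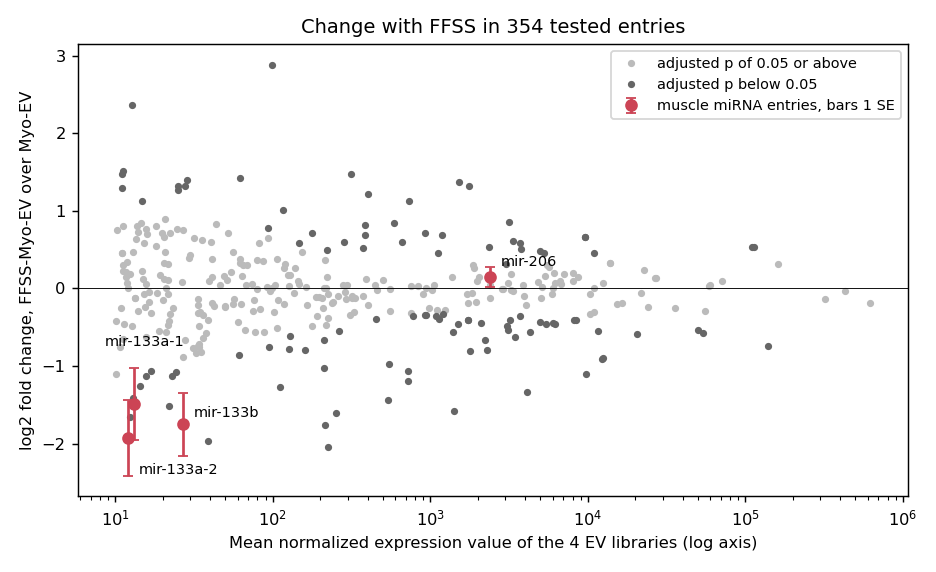
log2 fold change of FFSS-Myo-EVs over Myo-EVs from edgeR against the mean normalized expression value of the 4 EV libraries (log axis) for the 354 tested entries, with the 4 tested muscle entries in red and bars of 1 standard error. mir-133b, mir-133a-1 and mir-133a-2 lie at -1.75, -1.49 and -1.92 among the entries with low means, whereas mir-206 lies at 0.15.

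Of all 354 tested entries, 18.4% were called lower and 12.1% higher. Among the muscle entries tested, 3 were called lower and 0 higher, and the median log2 fold change was -1.62 against -0.02 over all tested entries. The 3 lower entries share sequence and are not separate observations, and they set this median. Both mir-133a entries were tested only through their Myo-EV level, which favours a call of lower. Over all entries 108 were called with all 4 libraries, 44 without FFSS-Myo-EV 1, 45 without FFSS-Myo-EV 2, 132 without Myo-EV 1 and 113 without Myo-EV 2. Without TMM, under the authors' own scaling, 54 were higher and 39 lower, against 43 and 65. By rank of the normalized expression values alone, the FFSS-Myo-EV group lay wholly below the Myo-EV group in 23.7% of the 354 entries, among them the 3 mir-133 entries, and wholly above it in 36.7%, among them mir-206. The exact permutation test of 2 against 2 libraries cannot give a p below 0.333, so no such test was used for single values.

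**Figure D4:**
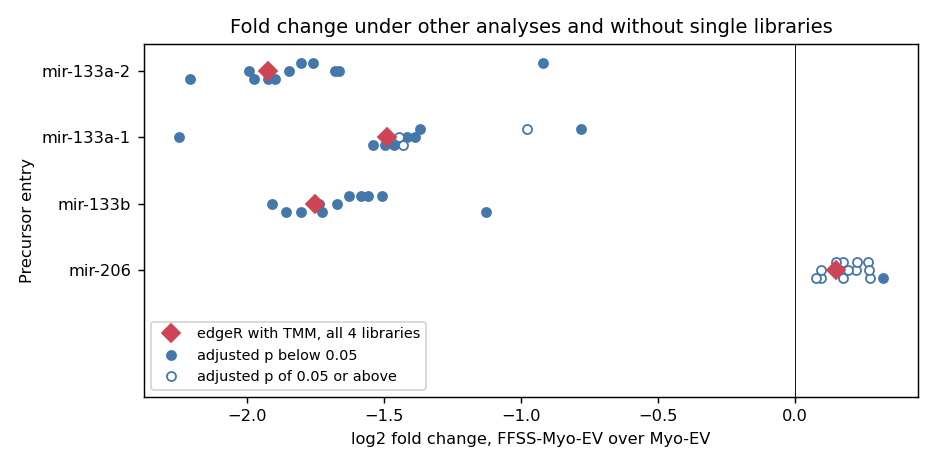
log2 fold change of FFSS-Myo-EVs over Myo-EVs (horizontal axis) for the 4 tested muscle entries, with the edgeR value of all 4 libraries as a diamond and each other analysis or left-out library as a circle, filled where the adjusted p was below 0.05. All circles of the 3 mir-133 entries lie below 0, 3 circles of mir-133a-1 are open, and 1 circle of mir-206 is filled.

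The balance between mir-206 and mir-133b, taken within each library, does not depend on the scaling between libraries. There were 43.6 counts of mir-206 for each count of mir-133b in Myo-EV 1 (32.4 to 59.9) and 65.8 in Myo-EV 2 (46.0 to 97.8). In FFSS-Myo-EV 1 there were 187 (111 to 343) and in FFSS-Myo-EV 2 there were 214 (119 to 429). The ratio was higher with FFSS in each library, and the counting intervals of the 2 groups did not overlap. In OB the ratio was 166 with an interval of 29.4 to 6596, since it rests on 1 count of mir-133b, and in BM there were 20 counts of mir-206 and 0 of mir-133b. The ratio of mir-133b to mir-133a-1 was 2.37 and 1.88 without FFSS and 1.4 and 2.75 with it, so the groups overlapped, and it was 0.0588 in OB (0.00141 to 0.375).

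**Figure D5:**
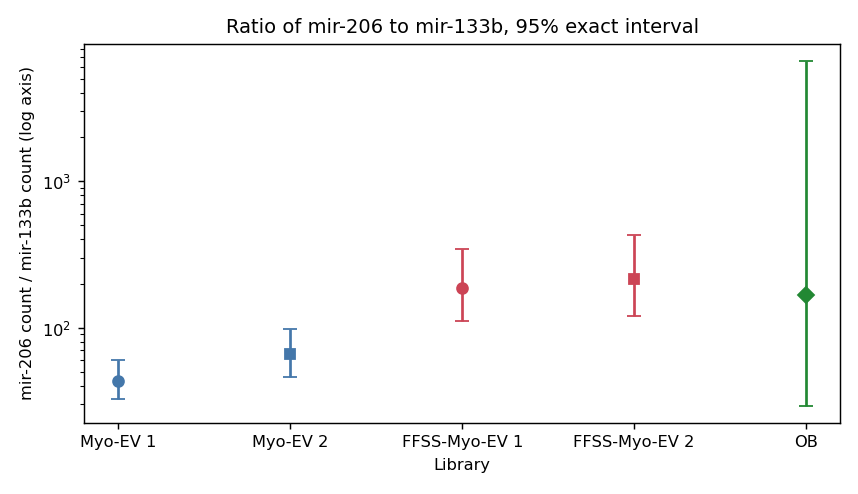
Count of mir-206 divided by that of mir-133b (log axis) in the Myo-EV, FFSS-Myo-EV and OB libraries, with exact 95% counting intervals as bars. The FFSS-Myo-EV libraries (187 and 214) lie above the Myo-EV libraries (43.6 and 65.8), and the OB interval spans both groups.

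Some markers of other cell types were called between the EV groups, and others were not. The summed value of the blood cell entries was 15.1 and 10.8 without FFSS and 53.8 and 50.9 with it. Of its 6 listed entries, 1 was at 0 in Myo-EV 1, 3 in Myo-EV 2 and 0 in the other 4 libraries, and mir-451a, a red cell miRNA, was the only one tested and was called higher. The liver miRNA mir-122 was 6.02 and 4.79 without FFSS and 17.9 and 15.5 with it, and it was called higher as well. Both had Myo-EV means under 10 and were tested only through their FFSS-Myo-EV level. Without the filter, the adjusted p in edgeR was 0.000611 for mir-451a and 0.0619 for mir-122, so the call on mir-122 did not hold. Of the other blood cell entries in that fit, mir-142b was called higher, with an adjusted p of 0.0363 in edgeR. mir-223, mir-142a, mir-144 and mir-150 did not pass, with adjusted p from 0.0758 to 0.896 in edgeR. The blood list left out mir-342, mir-486a and mir-486b. Their log2 fold changes in the main fit were -0.20, -0.04 and 0.04, and none was called. The summed values and those of mir-122 are on the normalized scale, and the part of these markers in the fall of the mir-133 entries was not tested. Of the mesenchymal entries (mir-199, mir-214, mir-143 and mir-145a), 1 of 6 was called higher, against 12.1% of all tested entries, and their summed value was 335111 to 437713 in the EVs, 536437 in OB and 22199 in BM.

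Other miRNAs known to regulate myogenesis were called in both directions, and the counts of these short lists are given beside the share of all entries. Of 19 entries that favour differentiation, 2 were called higher, 4 lower and 13 neither, against 12.1% higher and 18.4% lower of all tested entries, and the median log2 fold change was -0.02. The 2 higher were mir-26a-1 and mir-26a-2, copies that target the Polycomb gene Ezh2, each with a log2 fold change of 0.66 and adjusted p of 5.65e-05 and 6.24e-05 in edgeR. The 4 lower were mir-24-1 (-0.62), mir-24-2 (-0.56), mir-503 (-0.40) and mir-675 (-2.04), the last made from the imprinted H19 RNA. mir-27b, which targets Pax3 and was the most abundant of the list in the EVs, had a log2 fold change of 0.24 and an adjusted p of 0.286 in edgeR.

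Of 8 entries that oppose differentiation or mark the undifferentiated state, 3 were called higher, 1 lower and 4 neither, against the same 12.1% and 18.4%, with a median of 0.06. The 3 higher were mir-155 (0.70), mir-221 (0.51) and mir-23a (0.53), and mir-186 was lower (-0.41). The most abundant of this list, mir-125b-1, mir-125b-2 and mir-31, had log2 fold changes of -0.19, -0.20 and -0.33 that did not pass.

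As a description, the entries whose values over the 6 libraries were most like those of mir-206, by Pearson's r of log2(value + 1) among the 442 entries that averaged at least 10, were let-7k (0.998), mir-193a (0.997), mir-145b (0.993), let-7b (0.993) and mir-671 (0.992). These r values describe 6 points that fall into EVs and cells, and 81 entries had an r of at least 0.9. mir-133b came at place 70 with 0.917 and mir-133a-1 at place 145 with 0.714.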

How the data were processed

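Small RNA of 6 libraries had been sequenced from 90 ng of total RNA each. The authors grouped reads by sequence and matched them to miRBase precursors in CLC Genomics Workbench, and the deposited count is a whole number of reads per entry. The normalized expression value is a signal that the authors made from these counts by 1 constant per library. The labels name build mm10, and the miRBase release and the mismatches allowed are not given in the sources used here.

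Groups were taken from the labels. The counts of the 4 EV libraries were tested with edgeR 4.0.16 in R 4.3.3 (TMM, quasi-likelihood, adjusted p below 0.05), over entries with a mean value of 10 or more. With 2 libraries per group, 2 residual degrees of freedom were left, and the fit borrowed information across entries. The standard error is the log2 fold change divided by the root of F. The test was also tried on counts simulated with the common dispersion of the main fit for every entry. That checks the code and not the spread of these libraries. Ratios to OB and BM used mean normalized values. A floor of 3 counts replaced a cell or an EV group at 0 only, whereas the plan had it for cells with 1 to 3 counts as well. Alternatives were limma 3.58.1 (pseudocounts 1 and 10), DESeq2 1.42.0, other scalings and filters, and leaving out each library, where the lone library of a group is assumed to vary like the other group.

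Same-numbered EV libraries deviated together with a correlation of 0.209 over 354 entries, which with 2 pairs was not taken as pairing. Positions came from GENCODE M21 on GRCm38 and sequences from RefSeq. Named entries were the 6 members, 5 further muscle-enriched miRNAs (mir-208a was not used here), lists on myogenesis with their most abundant entries, markers of other cell types, and the 5 entries most like mir-206. The called entries of the myogenesis lists were named after their values were seen. The members and lists were chosen with earlier results of these data known.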

Additional observations from a re-analysis of the deposited data

How the results depend on the processing

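The fall of mir-133b and mir-133a-2 with FFSS kept its direction in every analysis that included them. It stayed past the threshold wherever an adjusted p was given. DESeq2 gave none for mir-133a-2, whose unadjusted p there was 0.0220. For mir-133a-1, leaving out single libraries gave log2 fold changes from -2.25 to -0.98, and 3 of these 4 fits did not pass. For mir-206 they ranged from 0.076 to 0.32, with a pass without Myo-EV 2 alone. With the replicate number as a block (replicate block), the log2 fold changes were -1.50 for mir-133a-1, -1.92 for mir-133a-2, -1.75 for mir-133b and 0.15 for mir-206, with 110 entries called, and no call on the muscle entries changed.

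Over all entries, 108 were called (43 higher, 65 lower), and 44 to 132 with a library left out. Library totals gave 49 higher and 46 lower, the authors' scaling 54 and 39, limma 57 and 37 with a pseudocount of 1 and 56 and 37 with 10. The authors' scaling raised the median log2 fold change by 0.12 relative to TMM, and limma by 0.13 and 0.12. A mean of at least 100 left the mir-133 entries untested.

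For mir-206, median-of-ratios size factors gave 19.3-fold for Myo-EVs over OB, 21.6-fold for FFSS-Myo-EVs over OB and 291-fold for FFSS-Myo-EVs over BM. Shares of the library total gave 229-fold for Myo-EVs over BM, 27.3-fold for FFSS-Myo-EVs over OB and 267-fold for FFSS-Myo-EVs over BM. The ratio of mir-133a-1 in FFSS-Myo-EVs to OB was 0.472 without FFSS-Myo-EV 1 and 1.06 without FFSS-Myo-EV 2. The causes were not tested. At 4 to 45 counts per EV library, mir-133 is measured far less precisely than mir-206, and OB and BM have no replicate.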
